A study of Homo sapiens with 4 samples.

Results

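The Tribbles pseudokinase genes TRIB1, TRIB2 and TRIB3 were followed in A549 cells, an established line from a human lung adenocarcinoma, after glutamine was withdrawn. They were chosen by name, as 3 of the 58560 genes to which the deposited transcript counts could be summed, and they have 12 annotated transcripts. The 4 libraries of poly(A)-selected RNA were 2 of glutamine-deprived cells and 2 of control cells. The deprived cells had been washed with PBS and kept in DMEM with no glutamine and 10% FBS, for 24 hours (replicate 1) and 25 hours (replicate 2) by their sample labels, although the protocol gives 24 hours for both. The control cells grew in DMEM with 10% FBS and antibiotics, and their labels name no treatment, so neither a wash nor a change of medium is recorded for them. Both groups are the same cell line with no genetic change named, and the labels do not say that replicates came from separate cultures, so p-values measure only the spread between these libraries.

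Tribbles proteins have the fold of a protein kinase but bind ATP weakly or not at all. They act as scaffolds: a C-terminal tail recruits the ubiquitin ligase COP1, and the pseudokinase domain holds a substrate such as the transcription factor C/EBP alpha next to it. TRIB3 is also known to bind AKT and the stress factors ATF4 and CHOP, and its gene is a classical target of these factors when cells lack amino acids or have misfolded protein in the endoplasmic reticulum.

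Library totals were 123414592 and 120425759 counts for deprived replicates 1 and 2, and 101496318 and 101982373 counts for control replicates 1 and 2. Across genes, which are not independent of each other, the log2 CPM of replicates correlated at r = 0.979 (deprived) and 0.982 (control), and those of libraries from different groups at 0.928 to 0.931. The epithelial markers EPCAM, CDH1, KRT8, KRT18 and KRT19 were detected in all libraries and summed to 2019 and 1730 CPM in deprived cells, against 7570 and 7681 CPM in control cells, and all 5 were called lower. EPCAM was low throughout, at 0.498 and 0.756 CPM in deprived cells against 2.21 and 2.70 CPM in control cells. Markers of other cell types were near 0 in all libraries: PTPRC of blood cells reached at most 0.385 CPM, and the summed fibroblast and endothelial markers reached at most 1.58 and 0.534 CPM. Both endothelial markers were nonetheless called lower by edgeR, as TRIB2 was, on few counts: CDH5 had 7 and 0 counts in deprived and 44 and 35 in control cells (adjusted p = 0.0447), and PECAM1 had 0 and 0 in deprived and 17 and 14 in control cells (adjusted p = 0.0129). CPM here are counts as a share of the library total after TMM scaling, which divides each library by a factor that brings most genes to the same level, and TPM are counts per transcript length, as a share of their own total. The part that the fall in epithelial markers may have in the results below was not tested, and in bulk RNA fewer cells of a type and less RNA per cell cannot be told apart.

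The TRIB3 sequences shown here lie in the first exon of its main transcript and at exon junctions of its transcripts. TRIB3 (ENSG00000101255) spans chr20:362835-397559 on the forward strand of GRCh38. Its main transcript, TRIB3-201, begins at position 380617 with a noncoding exon of 553 bases (380617 to 381169), part of the 5′ UTR. Within that exon stand 3 tandem copies of a 33-base unit, and each copy holds the 8-base core of the C/EBP-ATF response element, the site at which ATF4 and CHOP act with C/EBP partners. The 30 bases around each core are shown with the core in capitals. It was searched as TGATGNAA on both strands and here reads on the strand opposite to the gene. The 3 windows, at chr20:380881-380910, chr20:380914-380943 and chr20:380947-380976, are identical.
TRIB3 repeat 1: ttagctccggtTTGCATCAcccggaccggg
TRIB3 repeat 2: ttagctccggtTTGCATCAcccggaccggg
TRIB3 repeat 3: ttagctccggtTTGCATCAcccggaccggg
The cores lie 275, 308 and 341 bases after the annotated start. Of the first 553 transcript bases of 19269 protein-coding genes, 1455 (7.55%) held at least 1 such core and 6 (0.0311%) held at least 3. A match is a description of the letters, and no binding was measured.

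The 4 TRIB3 transcripts differ in the exon that is joined to the one carrying the start codon, and these junctions are shown because they are among the sequences in which the transcripts differ, beside their first and last exons. The last 15 bases before each junction are in lower case and the first 15 of the exon that begins at position 388011 are in capitals, so that all 4 share the capitals. In TRIB3-201, TRIB3-203 and TRIB3-204 the annotated start codon is the first codon of that exon (388011), whereas TRIB3-202 starts its reading frame in an earlier exon, at 382546.
TRIB3-201: gaacgacggggcgagATGCGAGCCACCCCT
TRIB3-203: gggggtctgttttgcATGCGAGCCACCCCT
TRIB3-202: cctacctggcaacagATGCGAGCCACCCCT
TRIB3-204: ctgcctcactttcagATGCGAGCCACCCCT
The exon joined there ends at position 381169 in TRIB3-201, 381500 in TRIB3-203, 382626 in TRIB3-202 and 385733 in TRIB3-204. The repeats are in the first exon of TRIB3-201 and in no exon of the other 3 transcripts.

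**Figure D1:**
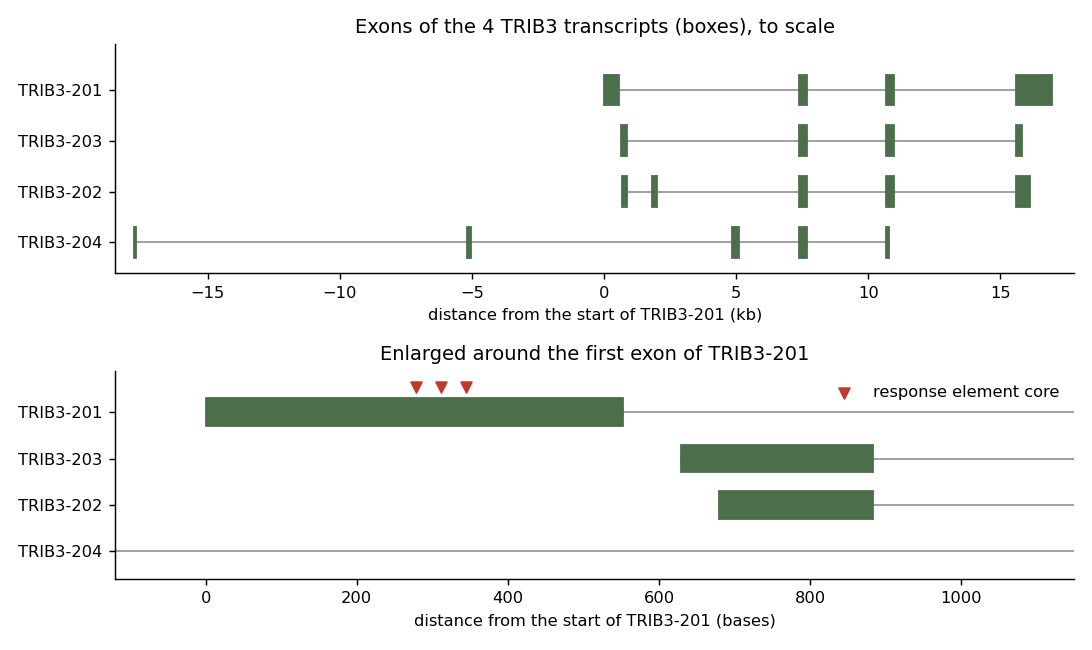
Exons (boxes) and introns (lines) of the 4 annotated TRIB3 transcripts, drawn to scale against the distance from the start of TRIB3-201 in kb (top) and, enlarged around its first exon, in bases (bottom). Triangles mark the 3 response element cores, which lie 275, 308 and 341 bases after the start of TRIB3-201 and before the first exons of TRIB3-203 and TRIB3-202.

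The promoter windows of RefSeq (GRCh38.p14), which run from 250 bases before to 50 bases after a gene's start, gave 3 windows for TRIB3 and 1 for TRIB2. None of these 4 windows held TGATGNAA, the C/EBP motif TTGCGNAA, the cyclic AMP response element TGACGTCA or the NF-Y box CCAAT on either strand. The TRIB3 windows begin at position 381045, which is 67 bases after the end of the repeat array (380879 to 380978), so the repeats fall outside them. Over all 35116 windows, TGATGNAA was found in 3.62%, TTGCGNAA in 0.891%, TGACGTCA in 1.85% and CCAAT in 34.6%. Of 10 other target genes of ATF4 and CHOP, 8 had a window and 2 of these, ASNS and CHAC1, held the response element core, as did ATF3, a factor that acts on TRIB3. The windows are shown for comparison with the TRIB3 copies, with the core in capitals, at chr7:97872458-97872487 (reverse strand, core 68 bases before the start), chr15:40953251-40953280 (209 bases before) and chr1:212565205-212565234 (191 bases before).
ASNS: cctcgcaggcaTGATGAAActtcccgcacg
CHAC1: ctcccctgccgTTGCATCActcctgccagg
ATF3: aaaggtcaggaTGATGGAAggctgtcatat
The core of CHAC1, which reads on the strand opposite to the gene, has the same letters as those of TRIB3.

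The study compared gene expression with and without glutamine, and the Tribbles genes differed from one another in this comparison. TRIB3 rose, TRIB2 fell, and TRIB1 rose slightly under TMM scaling. All 3 genes passed the filter on low counts and all 3 were called at an adjusted p under 0.05 by edgeR's quasi-likelihood test, 2 higher and 1 lower. A call alone separates few genes here, since 49.6% of the 24527 genes tested were called, 25.2% higher and 24.4% lower.

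TRIB3 had 99222 and 92910 counts in deprived cells, against 12459 and 10887 in control cells. On the CPM scale its level was 950 and 856 in deprived cells and 109 and 98.8 in control cells. Both deprived libraries stood far above both controls, and the groups did not overlap. The means were 903 ± 66.4 CPM in deprived and 104 ± 7.23 CPM in control cells (SD, n = 2 each), a log2 fold change of 3.12 ± 0.10 (SE) or 8.69-fold. The edgeR adjusted p was 1.46e-05, and TRIB3 stood 383rd of the 24527 tested genes by log2 fold change and 159th by p. Without each library in turn its log2 fold change ran between 3.04 and 3.21. By TPM rank among all 58560 genes, TRIB3 was 174th and 166th in deprived cells, against 1347th and 1614th in control cells.

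TRIB2 (ENSG00000071575, chr2:12716889-12742734, forward strand) was scarce in A549. It had 3 and 15 counts in deprived cells, against 150 and 143 in control cells. In CPM this was 0.0287 and 0.138 in deprived cells, against 1.31 and 1.30 in control cells. The groups did not overlap, the control libraries lay close together, and the deprived pair differed from each other by more than the control pair did. The means were 0.0835 ± 0.0774 CPM in deprived and 1.31 ± 0.0105 CPM in control cells (SD, n = 2 each). TRIB2 fell by 3.94 ± 0.62 on the log2 scale (SE, edgeR adjusted p = 0.00283), 402nd from the lowest among the tested genes. The summed counts of 18 in deprived and 293 in control cells gave a 15.4-fold lower level in deprived cells after scaling, with an exact 95% interval of 9.60 to 26.4 that covers counting error only. PCR reads without molecular identifiers are not independent molecules. The size of the fall depended on which deprived library was used: it was 9.33-fold without deprived replicate 1 and 43.3-fold without deprived replicate 2, and remained called in both.

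TRIB1 (ENSG00000173334, chr8:125430321-125438405, forward strand) differed least. It had 7077 and 7289 counts in deprived cells, against 5695 and 5529 in control cells. On the CPM scale the level was 67.8 and 67.2 in deprived and 49.8 and 50.2 in control cells. With TMM scaling both deprived libraries were higher and the groups did not overlap. The means were 67.5 ± 0.417 CPM in deprived and 50.01 ± 0.241 CPM in control cells (SD, n = 2 each), and the log2 fold change was 0.43 ± 0.06 (SE, 1.35-fold, edgeR adjusted p = 0.00229), 7707th of the tested genes from the highest. With library size as the only scaling the log2 fold change was 0.10 and the call was lost (edgeR adjusted p = 0.315). In TPM the groups overlapped, at 29.2 and 34.8 in deprived cells and 30.9 and 28.0 in control cells. The rise of TRIB1 therefore holds with TMM and the other scaling factors but not by library size alone. Under that scaling the median change over all genes was -0.40 on the log2 scale, against -0.06 with TMM, and 32.8% of the calls were higher (4179 higher, 8565 lower), against 50.8%. Under it TRIB3 and TRIB2 kept their direction and their calls.

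**Figure D2:**
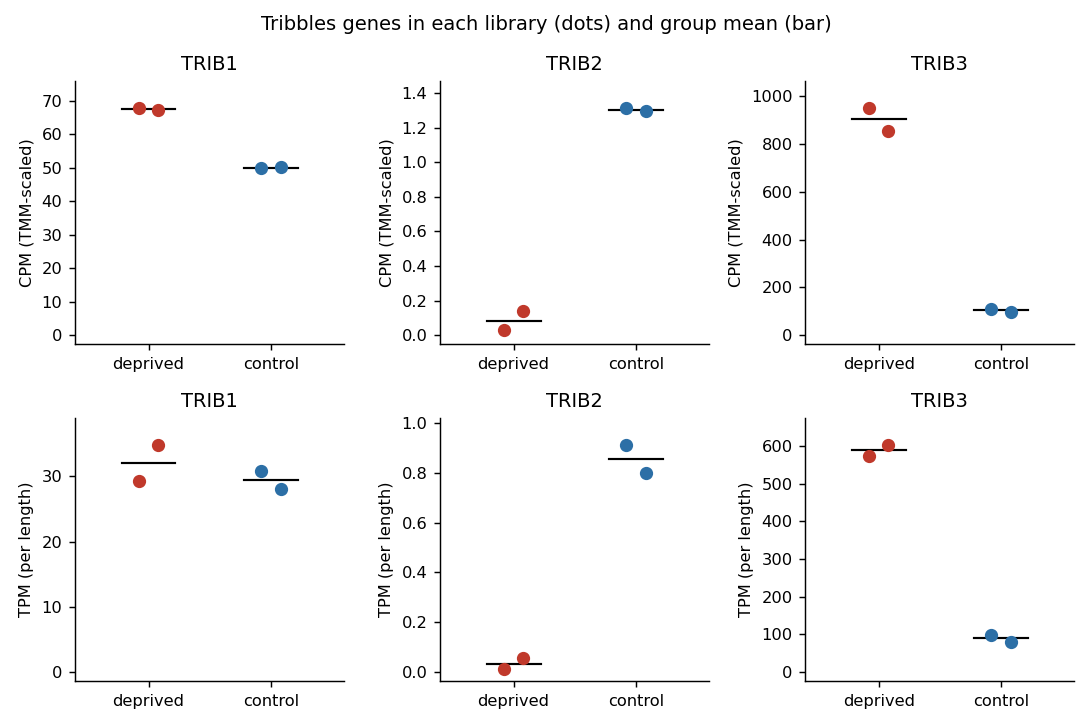
Level of TRIB1, TRIB2 and TRIB3 in each library (dots) with the group mean (bars), in TMM-scaled CPM (top row) and in TPM (bottom row), deprived and control cells, 2 libraries each; every axis starts at about 0. TRIB3 is 856 to 950 CPM in deprived and 98.8 to 109 CPM in control cells, TRIB2 is at most 0.138 CPM in deprived and at least 1.30 CPM in control cells, and the TRIB1 dots separate in CPM but overlap in TPM.

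Levels can be compared between genes per transcript length. TRIB3 had the highest level of the 3 genes in every library, followed by TRIB1 and then TRIB2, and no neighbours in this order overlapped. TRIB3 was 574 and 603 TPM in deprived cells and 99.1 and 78.4 TPM in control cells, whereas TRIB2 was 0.00976 and 0.0544 TPM in deprived cells and 0.912 and 0.8003 TPM in control cells. The level of TRIB3 was 19.6 and 17.3 times that of TRIB1 in deprived cells, against 3.21 and 2.80 times in control cells. As the difference of the mean log2 ratio, this was 2.62 higher in deprived cells. The ratio within a library does not depend on the scaling of the libraries, so the larger change of TRIB3 than of TRIB1 was present on any scaling. The log2 ratio of TRIB3 to TRIB2 was 15.84 and 13.44 in deprived and 6.76 and 6.61 in control cells, a difference of 7.95. This difference was 6.75 without deprived replicate 1 and 9.15 without deprived replicate 2. Both ratios separated the groups, but with 2 against 2 libraries the exact permutation test (two-sided, 6 arrangements) gave p = 0.333 for each, the smallest it can give.

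At the transcript level, 9 of the 12 Tribbles transcripts had at least 10 counts in at least 2 libraries. The same 9 were tested. TRIB3-201 was called higher by edgeR and none was called lower, and 6 of the 9 had an unadjusted p under 0.05. Of all 83759 transcripts tested, 1.67% were called. The common coefficient of biological variation, which describes variation between replicate libraries, was 0.675 in the transcript fit and 0.210 in the gene fit. The files do not say how reads were divided among transcripts, and that step adds an error which the test does not see.

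TRIB3-201, the annotated transcript that carries the repeats, was assigned nearly all TRIB3 counts. Its last exon has 1362 bases, against 551 in TRIB3-202 and 231 in TRIB3-203, and TRIB3-204 ends before that exon. Reads from much of that exon can therefore fall only on TRIB3-201, whichever start was used. How many of the counts came from the exon with the repeats is not known. TRIB3-201 had 98193 and 91525 counts in deprived cells, against 11922 and 10532 in control cells. Its share of the gene's counts was 98.96% and 98.5% in deprived cells, against 95.7% and 96.7% in control cells, so the share was higher in both deprived libraries. The log2 fold change was 3.14 ± 0.11 (SE, edgeR adjusted p = 0.0324). The call was lost without each of the 4 libraries in turn, with edgeR adjusted p from 0.177 to 0.235 and log2 fold changes from 3.06 to 3.25.

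The other TRIB3 transcripts were scarce, and none was called. TRIB3-203 had 592 and 1052 counts in deprived and 373 and 192 in control cells (log2 fold change 1.59 ± 0.52, edgeR adjusted p = 0.177). TRIB3-202 had 327 and 257 counts in deprived and 115 and 100 in control cells (1.501 ± 0.366, adjusted p = 0.117). TRIB3-204 had 110 and 76 counts in deprived and 49 and 63 in control cells (0.79 ± 0.44, adjusted p = 0.350). In counts and in CPM both deprived libraries lay above both controls for each of the 3. With 2 against 2 libraries such an order can easily arise with no change. How common it was among all transcripts was not counted. Relative to the change of the gene, the log2 change was -1.51 for TRIB3-203, -1.60 for TRIB3-202 and -2.31 for TRIB3-204. In the test of transcript usage by edgeR's diffSpliceDGE none of the 9 Tribbles transcripts was called (1, TRIB3-204, had an unadjusted p under 0.05, adjusted p = 0.458), against 1.81% of the 72162 transcripts tested.

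TRIB2 counts fell on 2 transcripts apart from a single count. TRIB2-201, the longest of them, had 3 and 15 counts in deprived and 136 and 129 in control cells, and was not called (edgeR adjusted p = 0.109). TRIB2-203 had 0 and 0 counts in deprived and 13 and 14 in control cells, not called either (adjusted p = 0.0966); set against a floor of 3 counts per library, its CPM was at least 4.34-fold lower in deprived cells. The transcripts use the same start codon and part after the exon that ends at position 12723552. The junctions are shown with the last 15 bases of that exon in lower case and the first 15 of the next in capitals, at position 12740326 for TRIB2-201 and at 12724629 for TRIB2-203.
TRIB2-201: taaggacgaagagagGACTCGGGTCAAGCT
TRIB2-203: taaggacgaagagagATGCCTCTGCCCCTG
TRIB2-202 was listed at 0 in all 4 libraries, and TRIB2-204 had 1 count, in control replicate 1. TRIB1 counts fell almost wholly on TRIB1-201, with 6991 and 7158 counts in deprived and 5628 and 5447 in control cells (log2 fold change 0.41 ± 0.12, edgeR adjusted p = 0.155). TRIB1-204 had 46 and 95 counts in deprived and 31 and 47 in control cells, TRIB1-202 had 33 and 34 in deprived and 32 and 31 in control cells, and TRIB1-203, not tested, had 7 and 2 in deprived and 4 and 4 in control cells. The minor TRIB1 transcripts either overlapped between groups or differed by a few counts.

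**Figure D3:**
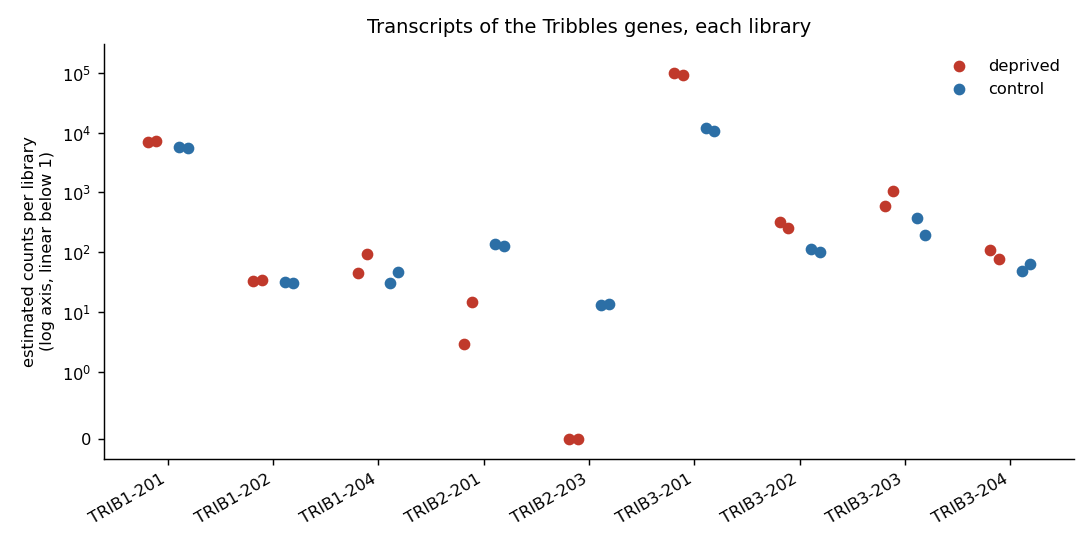
Estimated counts of the 9 tested Tribbles transcripts in each library (dots) on a log axis that is linear below 1, deprived cells left of control cells. TRIB3-201 lies at 98193 and 91525 in deprived and at 11922 and 10532 in control cells, and TRIB2-203 is at 0 in both deprived libraries.

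The genes that act with the Tribbles proteins were read in 8 lists holding 58 genes, of which 37 were higher, 15 lower and 6 not called, with a median log2 fold change of 0.81 against -0.06 over all genes tested. Over all genes tested 25.2% were called higher and 24.4% lower. These shares are the background for every count of called genes below, and no list was tested as a set. The lists were chosen with earlier results of these data known, so their counts and medians are descriptions only. STK40, a related pseudokinase that also recruits COP1, had 22.9 and 22.2 CPM in deprived and 8.52 and 7.39 CPM in control cells, with no overlap (log2 fold change 1.51 ± 0.12, edgeR adjusted p = 0.000149). COP1 itself, through which the Tribbles tails act, was 59.5 and 55.4 CPM in deprived and 61.3 and 64.1 CPM in control cells and was not called (-0.13 ± 0.07, adjusted p = 0.207); it was called lower with library size only, with upper-quartile factors and with protein-coding transcripts only. Of the 7 genes of the COP1 ligase, 4 were higher and 2 lower (median 0.40): the adaptors DET1 (1.46) and DDA1 (1.02) and the scaffolds CUL4A (0.40) and CUL4B (0.44) rose, while DDB1, which links the scaffold to its receptors, fell by 0.64 and the RING protein RBX1 fell by 0.60 on the log2 scale. The calls of CUL4A and CUL4B were lost with library size only. DDB1, DDA1 and CUL4A share exonic bases with genes on the other strand, and whether the counting used strand is not given.

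Of the 7 proteins that COP1 or the Tribbles proteins are known to mark for degradation, the genes of 3 were higher, 1 lower and 3 not called (median 0.23). JUN, the AP-1 factor, rose by 5.66 and CEBPB by 0.69 on the log2 scale, and ETV5, which shares exonic bases with DGKG, rose by 1.06. CEBPA, the substrate of TRIB1 and TRIB2, was 15.3 and 14.5 CPM in deprived and 19.1 and 17.5 CPM in control cells and was not called (-0.29 ± 0.10, edgeR adjusted p = 0.0570), although 5 of the alternatives called it lower. ACACA, the acetyl-CoA carboxylase that TRIB3 brings to COP1, fell by 0.84. These are RNA levels, and the proteins were not measured.

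Among 8 genes of binding partners 5 were higher, 2 lower and 1 not called (median 0.47). AKT1, a kinase that TRIB3 binds, fell by 0.53, and AKT2 was not called (0.02), with a negative value under 4 alternatives, of which library size only called it lower (-0.32, edgeR adjusted p = 0.0149). FOXO3, a factor that TRIB2 is known to restrain, rose by 1.58. MAP2K1, which encodes the TRIB1 partner MEK1 and overlaps SNAPC5 on the other strand, rose by 0.87. SQSTM1, the autophagy receptor p62, rose by 0.34 (edgeR adjusted p = 0.0446), a call lost without deprived replicate 1, without control replicate 1, without control replicate 2 and, among other settings, with library size only, where the value was -0.001.

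Of 10 genes that act on TRIB3 transcription 8 were higher, 1 lower and 1 not called (median 0.81), and of 10 other targets of ATF4 and CHOP 8 were higher and 2 lower (median 2.63). ATF4 was 409 and 670 CPM in deprived and 165 and 132 CPM in control cells (log2 fold change 1.86). DDIT3, which encodes CHOP, was 143 and 124 CPM in deprived and 3.26 and 3.29 CPM in control cells (5.35) and overlaps MARS1 on the other strand. The TRIB3 change of 3.12 lay above the median of the other targets and below those of PPP1R15A (5.25), STC2 (3.69) and ASNS (3.39), and the targets DDIT4 and ERO1A fell by 0.32 and 0.45. The call of DDIT4 was lost without deprived replicate 2 and without control replicate 1. Of the 4 kinases of the stress response, EIF2AK3 rose by 0.71. EIF2AK4, which senses a lack of amino acids, rose by 0.22, but its value was -0.11 and not called with library size only. Its call was also lost with upper-quartile factors, no filter, and at least 50 counts in at least 2 libraries. Protein-coding transcripts only and the replicate block lost it too, as did leaving out deprived replicate 1, control replicate 1 or control replicate 2. EIF2AK2 fell by 0.29, a call lost with the replicate block and without deprived replicate 1, deprived replicate 2 or control replicate 1. EIF2AK1, which overlaps AIMP2 on the other strand, was not called, except as lower with library size only (-0.29, edgeR adjusted p = 0.0131).

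Of 8 FOXO target genes 2 were higher and 6 lower (median -0.91), and CCNG2 (-2.45) and SESN3 (-1.68) were the furthest down, while PIK3IP1 (1.54, a call lost with protein-coding transcripts only) and IRS2 (0.74) rose. Of 8 feedback genes of the MEK-ERK pathway 7 were higher and 1 lower (median 1.97), with DUSP6, SPRY2 and SPRY4 rising by 3.46, 2.46 and 2.44. EGR1, at 24.4 and 29.1 CPM in deprived and 0.403 and 0.0817 CPM in control cells, rose by 6.77, or by 8.32 without control replicate 1 and 6.04 without control replicate 2. DUSP4 fell by 0.26, a call lost with the replicate block and without deprived replicate 1, control replicate 1 or control replicate 2.

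**Figure D4:**
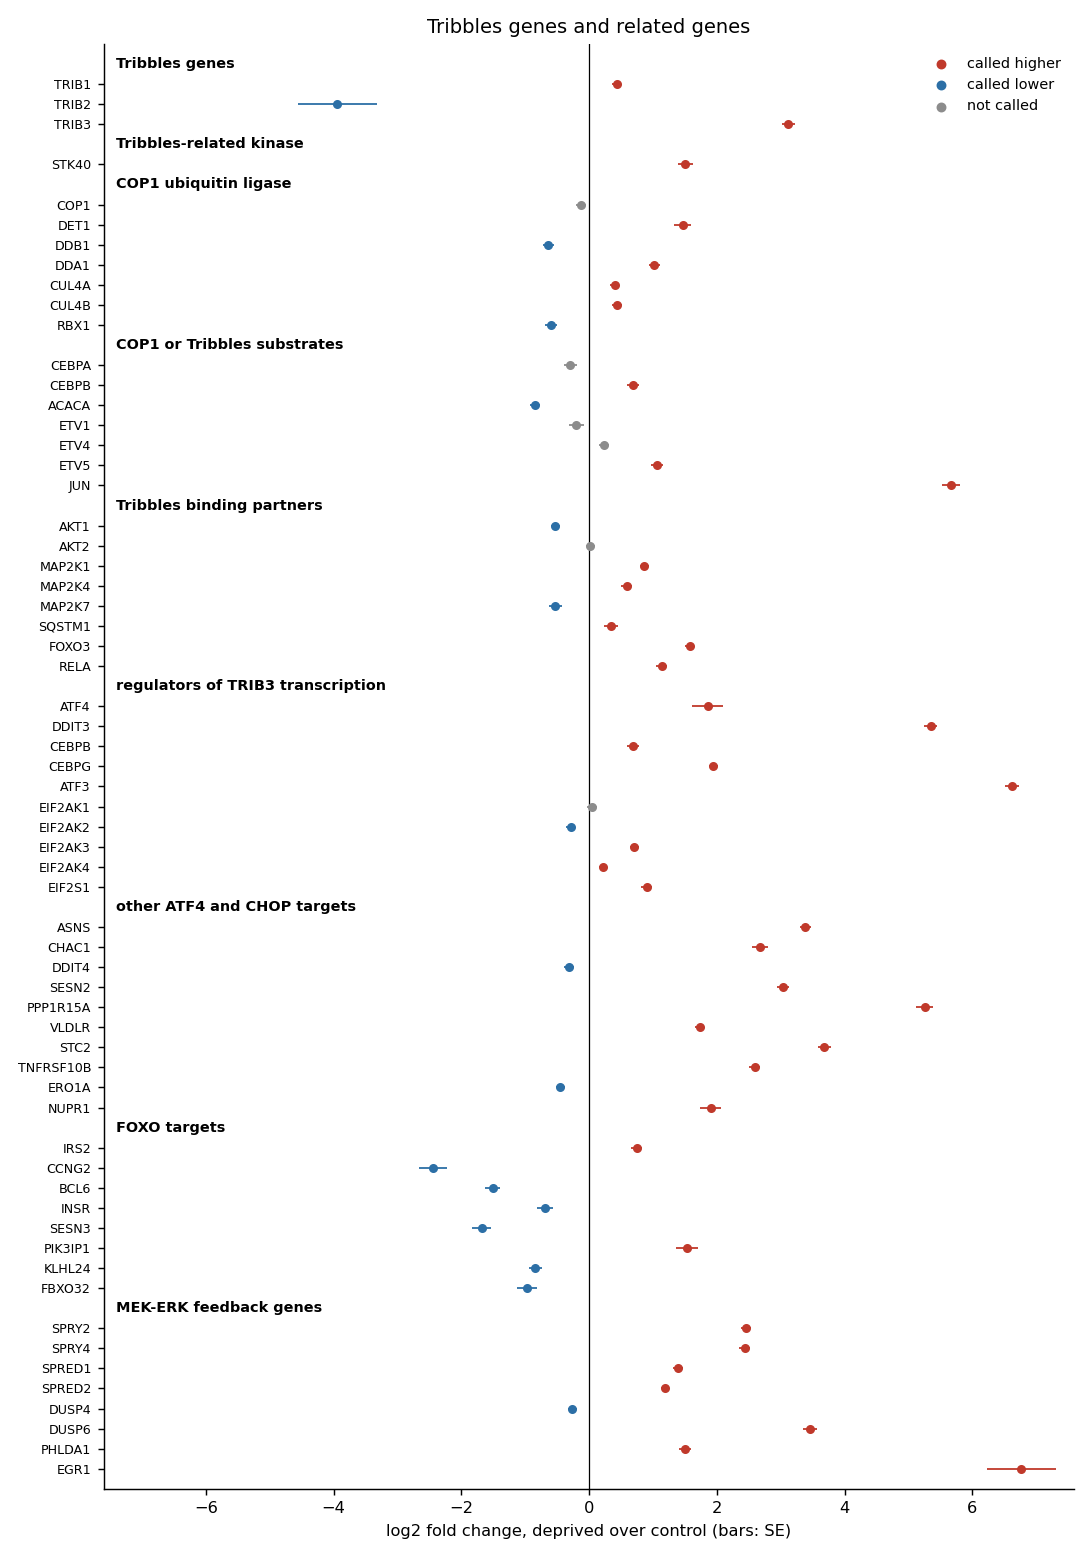
Log2 fold change (deprived over control) with its SE for the 3 Tribbles genes and the genes of the 8 lists, coloured by the edgeR call at an adjusted p under 0.05. TRIB3 (3.12) lies within the wide range of the other ATF4 and CHOP targets, from -0.45 (ERO1A) to 5.25 (PPP1R15A). TRIB2 (-3.94) lies below every listed gene, and TRIB1 (0.43) lies near 0.

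The genes around each Tribbles gene were read within 500 kb. Of 14 tested genes near TRIB3, 5 were higher, 7 lower and 2 not called. The nearest after it, RBCK1 at 9.9 kb, a subunit of the linear ubiquitin ligase, was 177 and 149 CPM in deprived and 79.2 and 79.7 CPM in control cells (log2 fold change 1.04). The nearest before it, NRSN2 at 3.2 kb, was 53.5 and 46.2 CPM in deprived and 67.6 and 72.6 CPM in control cells and fell by 0.49. That distance runs from the end of NRSN2 (359660) to the start of the scarce TRIB3-204 (362835). The main transcript TRIB3-201 begins farther away, at 380617. The rise of TRIB3 was larger than those of its neighbours apart from ANGPT4, which at 3.44 rested on 50 and 86 counts in deprived and 9 and 4 in control cells. Of 6 tested genes near TRIB1 none was higher and 2 were lower, SQLE (-1.08) and WASHC5 (-0.87), which overlaps NSMCE2 on the other strand, and of the 7 genes near TRIB2 none had enough counts to be tested.

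For each Tribbles gene the 5 protein-coding genes of at least 10 CPM with the nearest profile were found, by the Euclidean distance between log2 CPM centred on each gene's mean over the 4 libraries. For TRIB3 these were AEN (distance 0.0508), MAP2K3, PDGFB, OXTR and HSPB8 (0.108), from 9517 candidates. AEN, an exonuclease gene, was 1796 and 1575 CPM in deprived and 199 and 188 CPM in control cells. For TRIB1 they were NUDCD2 (0.0161), WDR33, UTP4, ZNF407 and ZDHHC17 (0.0232). For TRIB2, which is itself below 10 CPM, they were RNASE4 (0.299), PLCH1, CHST12, TMTC2 and CENPU (0.543), and its nearest gene lay farther from it than any of the 5 did from TRIB1 or TRIB3. The 0.1 CPM added before the log was of the size of the TRIB2 level in deprived cells, 0.0287 and 0.138 CPM. The fall of TRIB2 is therefore smaller in this profile than in the fit (-3.94). These 5 genes had log2 fold changes of -3.18 to -2.70, so they match the altered profile. UTP4 and CENPU overlap genes on the other strand, and RNASE4 shares exons with ANG.

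**Figure D5:**
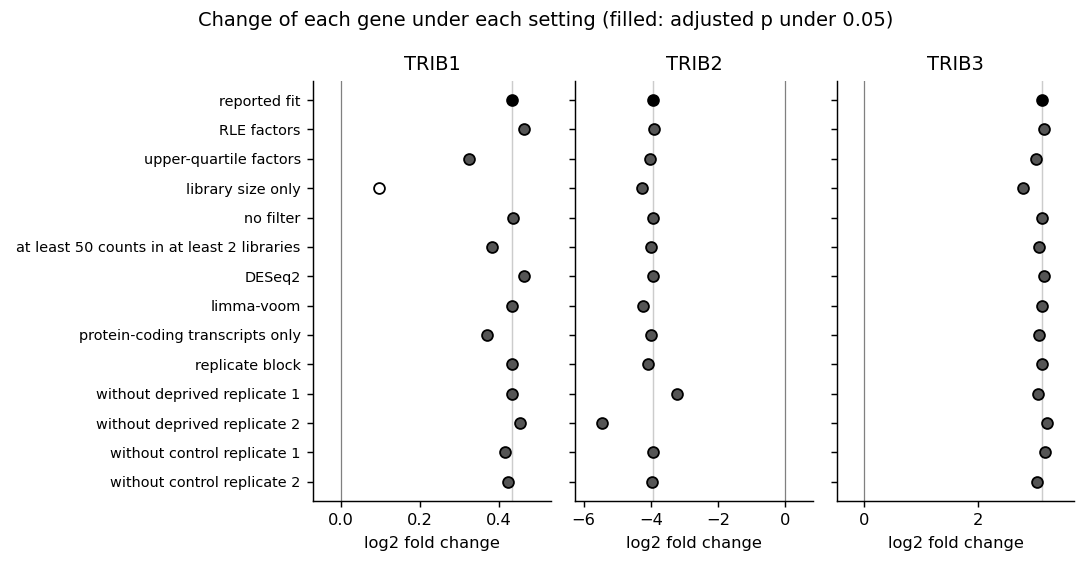
Log2 fold change of TRIB1, TRIB2 and TRIB3 (deprived over control) in the reported fit and under 13 alternatives, filled where the adjusted p is under 0.05. TRIB1 loses its call with library size only, at 0.10, TRIB2 runs from -5.44 to -3.22 with 1 deprived library left out, and TRIB3 stays between 2.78 and 3.21.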

How the data were processed

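RNA of 4 libraries was sequenced. The submitters' processing notes list DESeq2 1.20.0, featureCounts 1.5.0-p3 and HISAT2 2.0.5 with hg38 but no roles, and how reads were shared out between transcripts, and with which annotation, is not given there. The authors deposited estimated counts, whole numbers with 1 value per transcript for 229420 transcripts, per the file headers; they are taken as estimates because overlapping transcripts hold separate values. GENCODE 29 (GRCh38) matched 205306 of them, with 98.0% to 98.2% of the counts; the other 24114 were not used here. Counts were summed to genes by Ensembl ID. A deposited table of long non-coding RNA transcripts was not used.

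Genes (24527 after filterByExpr) and transcripts (83759) were tested with edgeR 4.0.16 in R 4.3.3 (TMM factors 0.862 and 0.919 for deprived and 1.15 and 1.10 for control libraries; glmQLFit, glmQLFTest, two-sided, Benjamini-Hochberg over all tested). The SE is the log2 fold change divided by the root of the F statistic. TPM use annotated transcript lengths. The edgeR, DESeq2 and limma-voom gene tests and the edgeR transcript and usage tests were tried on simulated counts. The permutation test was not. The simulated variation between replicates was close to that of the gene fit but well below the 0.675 of the transcript fit. That check therefore does not speak for the transcript and usage tests on these data. The counts of replicates differed by more than sampling noise (chi-square per degree of freedom 43.6 in deprived and 31.0 in control libraries). The members and lists were chosen with earlier results of these data known; 1 further gene was left out of the lists and is not reported here. Genes named are the members, the listed genes, genes within 500 kb and the 5 nearest profiles (pseudocount 0.1 CPM). Alternatives were other scaling factors, other filters, protein-coding transcripts only, DESeq2 1.42.0, limma-voom (limma 3.58.1), a replicate block and each library left out. Sequences are from GENCODE 29 transcripts and RefSeq promoter windows.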

Additional observations from a re-analysis of the deposited data

How the results depend on the processing

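TRIB3 was called higher and TRIB2 lower under all 13 alternatives, with log2 fold changes from 2.78 to 3.21 and from -5.44 to -3.22. TRIB1 was called higher under 12, and with library size only its gene change was 0.10 (edgeR adjusted p = 0.315). The number of Tribbles transcripts called, 1 in the reported fit, was 0 with no filter, 6 with DESeq2 (4 higher, 2 lower), 0 with the replicate block and 0 (lowest and highest) without each library in turn; the cause was not tested. Without 1 library, 9649 to 11687 genes were called. The deviations from the group means of libraries with the same replicate number were hardly correlated across genes (r = -0.02). This is a single value over genes that are not independent, so it cannot show whether the numbers mark shared cultures or days. The fit with the replicate block called 10608 genes against 12156, with 0.43 for TRIB1, -4.09 for TRIB2 and 3.12 for TRIB3.

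The following values changed sign, among them SQSTM1 and EIF2AK4, which were called higher in the reported fit (0.34 and 0.22) and lost that call. With library size only the values were -0.11 for ETV4, -0.32 for AKT2 and -0.29 for EIF2AK1 (both called lower there), -0.001 for SQSTM1, -0.11 for EIF2AK4 and -0.17 for TRIB1-202. With upper-quartile factors they were -0.0905 for AKT2 and -0.0621 for EIF2AK1, and with at least 50 counts in at least 2 libraries -0.0324 for AKT2 and -0.004 for EIF2AK1. EIF2AK1 was also -0.014 with protein-coding transcripts only. Without 1 library, EIF2AK1 ran from -0.0159 to 0.126 (negative without deprived replicate 1 and without control replicate 1) and AKT2 from -0.0361 to 0.0556 (negative without control replicate 2). Precision is limited by 2 libraries a group and, for TRIB2, by 18 counts in all in deprived cells.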
